A study of Mus with 8 samples.

Results

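The Cyp2 genes encode the largest family of cytochrome P450 enzymes in the mouse. They were followed here in the livers of LKB1 KO mice and of Ctrl mice, all taken 48 h after partial hepatectomy, an operation that removes part of the liver and lets the rest regrow. The members are the rows whose symbol in the platform annotation begins with Cyp2 and a subfamily letter, pseudogenes included, which gave 50 of the 23185 named genes in 14 subfamilies. LKB1 is a protein kinase encoded by Stk11, which switches on AMPK and related kinases. The 8 samples were 4 from LKB1 KO liver and 4 from Ctrl liver, each on its own expression array, and each value is a log2 expression level. The labels name the genotypes as LKB1 KO and Ctrl, without strain, age, sex, allele or the promoter of a Cre, so it is not known in which liver cells the gene was lost or whether the samples are separate animals. Cyp2a5 was not analysed here.

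Cytochrome P450 enzymes sit in the membrane of the endoplasmic reticulum, hold a heme group and use electrons passed on from P450 reductase and cytochrome b5 to add oxygen to their substrates. In hepatocytes the Cyp2 enzymes oxidise drugs, solvents, steroids and arachidonic acid. Many are expressed in zones of the liver lobule, differ between male and female mice, or are induced through the nuclear receptors CAR and PXR. The subfamilies lie as clusters of close relatives on a few chromosomes, so the probes of one gene can pick up transcripts of its neighbours.

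Most of the Cyp2 genes that changed were lower in the LKB1 KO livers. Over all 50 genes 11 fell, 1 rose and 38 did not pass the limma test at an adjusted p under 0.05, so that 24.0% of the family was called, against 1.98% of all 23185 genes. By direction, the background was 1.49% lower and 0.487% higher. The genes that fell were Cyp2e1, Cyp2f2, Cyp2a12, Cyp2c23, Cyp2c67, Cyp2d9, Cyp2d13, Cyp2d40, Cyp2d37-ps, Cyp2j5 and Cyp2u1, and the one that rose was Cyp2c55. The median difference of the 50 genes was -0.20 log2 units, against 0.02 over all genes, and 33 had a lower and 17 a higher mean in LKB1 KO. LKB1 KO and Ctrl arrays were fully separated for 17 of the 50 genes, 16 of them lower and 1 higher in LKB1 KO. Over all genes such separation was seen for 8.84%, with 5.5% lower and 3.34% higher.

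**Figure D1:**
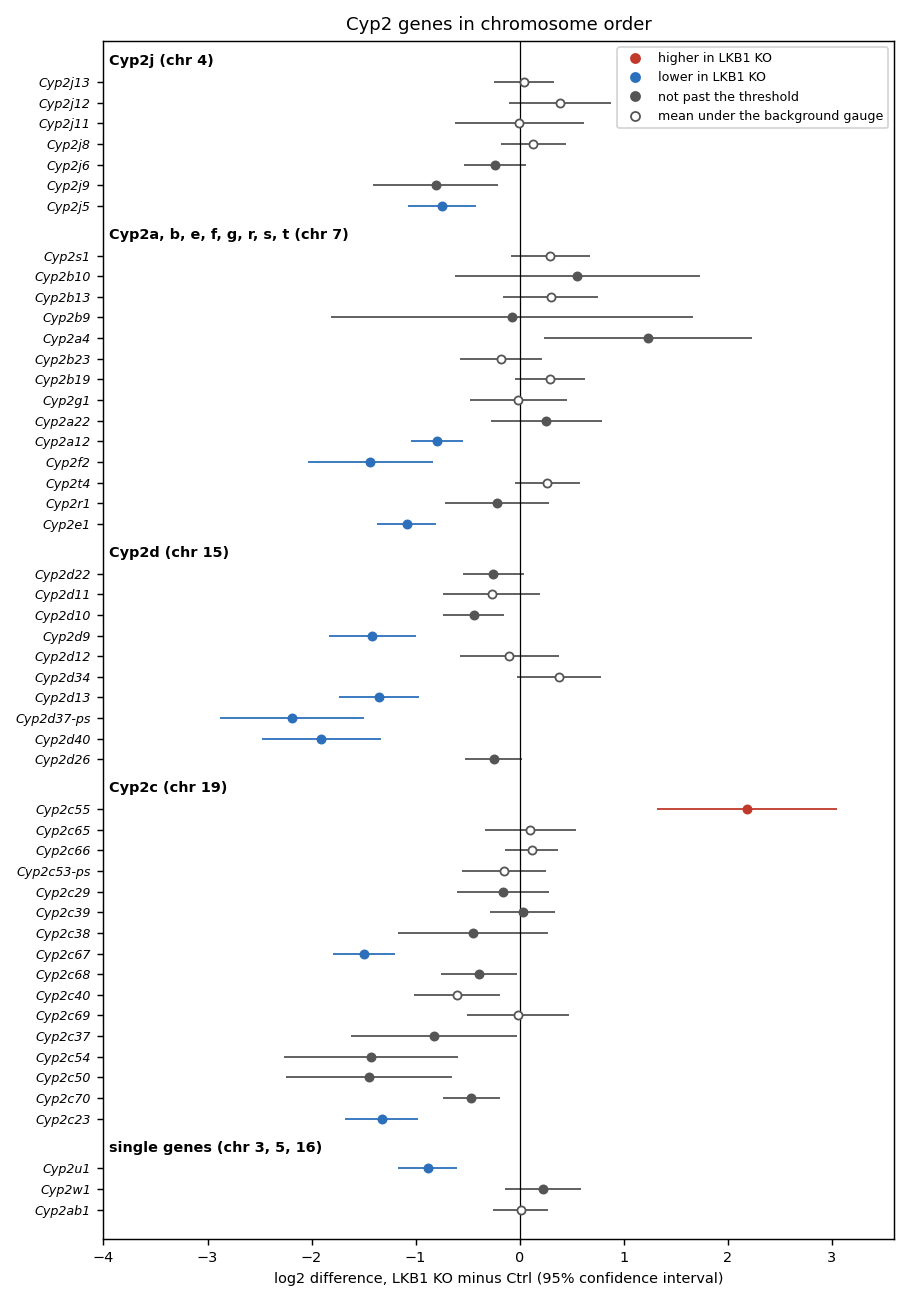
Difference of each of the 50 Cyp2 genes in log2 units, LKB1 KO minus Ctrl, with its 95% confidence interval, listed by chromosome and in RefSeq order along it. The 11 genes that fell are blue, the 1 that rose is red, and open circles mark the 19 genes whose mean lay under the background gauge of 3.73 log2 units.

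A gauge of background was taken from 1354 odorant and vomeronasal receptor genes, which are not expected to be expressed in liver. The 95th percentile of their mean levels was 3.73 log2 units. Of the Cyp2 genes, 31 had a mean over all 8 arrays above this gauge and 19 below it. All 12 called genes lay above it, as did 449 of the 458 calls over all genes, and of the 11947 genes above the gauge 3.76% were called. The 19 dim genes had differences between -0.60 and 0.39 log2 units and none was called by limma. For these a change cannot be told from background, and the lowest unadjusted p among them was that of Cyp2c40, 0.00866.

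**Figure D2:**
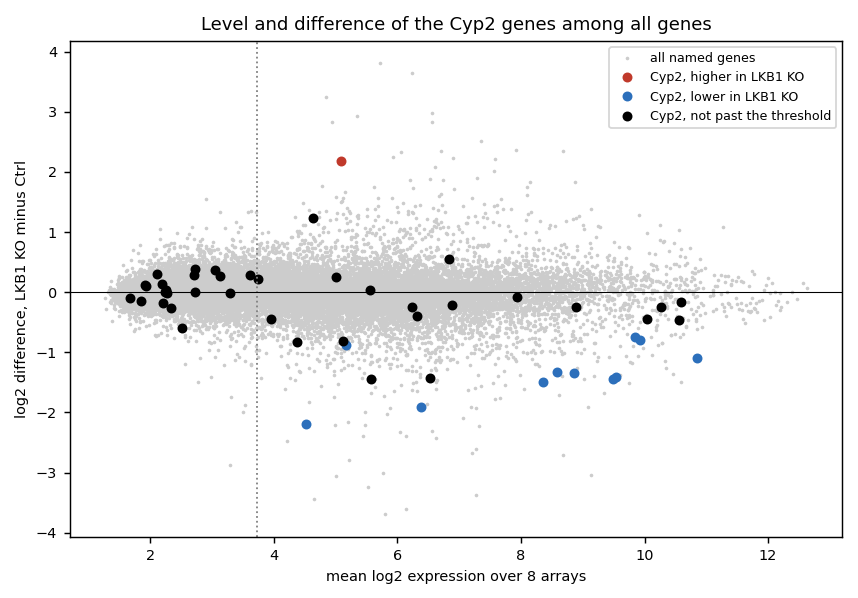
Mean log2 expression over the 8 arrays against the log2 difference, LKB1 KO minus Ctrl, for all 23185 named genes (grey) and the 50 Cyp2 genes (coloured by call), with the background gauge of 3.73 as a dotted line. The 11 falls spread over the range above the gauge, and 19 Cyp2 genes lie to its left near a difference of 0.

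Stk11 itself was lower in every LKB1 KO array, at 3.97 to 4.84 log2 units against 6.46 to 6.76 in Ctrl (adjusted p = 0.000453), so no array went against its label. The array medians lay between 3.75 and 3.96 and the correlations between arrays between 0.960 and 0.988. LKB1 KO 2 and Ctrl 4 had the lowest mean correlation with their own groups, 0.974 and 0.976. All 8 hepatocyte markers were above the gauge on all arrays, and none of them passed the test (median difference -0.25). Their summed linear level ran from 28257 to 29929 in LKB1 KO and from 33878 to 35470 in Ctrl. Some lists of other cell type markers also differed between the groups. For comparison, 1.98% of all genes and 3.76% of those above the gauge were called. The sinusoidal endothelial list had 3 of 8 members lower and sums of 814.8 to 955.4 in LKB1 KO against 1113 to 1410 in Ctrl. The macrophage list had 1 of 8 lower, with sums of 587.5 to 802.9 in LKB1 KO and 740.9 to 1382 in Ctrl. The stellate cell list had 0 of 8 past the limma threshold, with sums of 464.7 to 608.9 in LKB1 KO and 693.6 to 839.5 in Ctrl. The neutrophil list had 0 of 8 past the limma threshold, with 5 of 8 under the gauge on all arrays, and sums of 217.9 to 326.5 in LKB1 KO against 330.9 to 1038 in Ctrl. Its brightest markers S100a8 (-1.07, adjusted p = 0.164) and S100a9 (-1.07, adjusted p = 0.179) did not pass, and made up most of these sums. The list as a whole had a median of -0.08, with 5 lower and 3 higher means in LKB1 KO. Among the higher ones were Ngp (0.42) and Mpo (0.29). The erythroid list had 1 of 6 lower, Alas2 (-1.03, adjusted p = 0.0471), with overlapping sums of 412.2 to 758.3 in LKB1 KO and 588.9 to 777.9 in Ctrl. The cholangiocyte list and the T, B and NK cell list had 0 of 7 each past the limma threshold. The part of these shifts in the Cyp2 differences was not tested, and in whole tissue fewer cells of a type and less RNA per cell cannot be told apart.

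Cyp2e1 and Cyp2f2, each the single member of its subfamily, fell in the LKB1 KO livers. Cyp2e1 oxidises ethanol and paracetamol and is expressed around the central vein. It had log2 values of 10.43, 10.24, 10.22 and 10.31 in LKB1 KO 1 to 4, against 11.51, 11.44, 11.45 and 11.14 in Ctrl 1 to 4. The groups did not overlap and lay far apart relative to their spread, and the level was 2.12-fold lower (difference -1.09, SE 0.13, adjusted p = 0.00278). Cyp2f2, expressed around the portal tract, activates naphthalene in the airways. Its log2 values were 9.04, 8.57, 7.99 and 9.51 in LKB1 KO 1 to 4, against 10.27, 10.35, 10.05 and 10.18 in Ctrl 1 to 4. The LKB1 KO arrays differed more among themselves than the Ctrl arrays, with LKB1 KO 3 the lowest and LKB1 KO 4 the highest, and the gene was 2.71-fold lower (difference -1.44, SE 0.27, adjusted p = 0.0238). The adjusted p reached 0.0810 and the call ended when array 1 or 2 of either group was omitted, while the difference stayed between -1.68 and -1.17 over all arrays omitted singly.

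Whether the pericentral and the periportal enzyme changed by different amounts was tested on the difference between them within each array. The value log2 Cyp2e1 minus log2 Cyp2f2 averaged 1.52 ± 0.60 in LKB1 KO and 1.17 ± 0.19 in Ctrl (SD, n = 4 each). The groups overlapped, and the difference of 0.35 did not pass an exact two-sided permutation test (p = 0.371, where the smallest possible is 0.0286).

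The Cyp2c subfamily held falls, a rise and genes that did not pass. Of 16 measured members 2 fell, 1 rose and 13 were not called, with a median difference of -0.42 log2 units. Cyp2c67 had 7.79, 7.62, 7.33 and 7.69 in LKB1 KO 1 to 4, against 9.20, 9.10, 9.15 and 8.97 in Ctrl 1 to 4. It was 2.82-fold lower, with the smallest adjusted p of the 50 genes (difference -1.50, SE 0.13, adjusted p = 0.000947). Cyp2c23, also known as Cyp2c44, is an epoxygenase of arachidonic acid. It had 7.95, 8.05, 7.62 and 8.05 in LKB1 KO 1 to 4, against 9.19, 9.38, 9.47 and 8.93 in Ctrl 1 to 4. All 4 LKB1 KO arrays were lower than all 4 Ctrl arrays, and the level was 2.51-fold lower (difference -1.33, SE 0.16, adjusted p = 0.00285).

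Cyp2c55 was the Cyp2 gene that rose. It is found mainly in the intestine and is induced in liver through CAR and PXR. Its log2 values were 6.13, 5.95, 6.24 and 6.40 in LKB1 KO 1 to 4, against 3.39, 4.22, 5.28 and 3.09 in Ctrl 1 to 4. The LKB1 KO arrays lay close together, while the Ctrl arrays spread over more than 2 log2 units, with Ctrl 3 the highest and Ctrl 1 and Ctrl 4 under the background gauge. The difference of 2.18 (SE 0.39, adjusted p = 0.0190) corresponds to 4.54-fold, a size that is uncertain with 2 Ctrl arrays under the gauge. The call held only when Ctrl 3, Ctrl 4 or LKB1 KO 2 was the array omitted, and otherwise ended at an adjusted p of at most 0.0636, with differences of 1.88 to 2.61 over all arrays omitted singly.

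**Figure D3:**
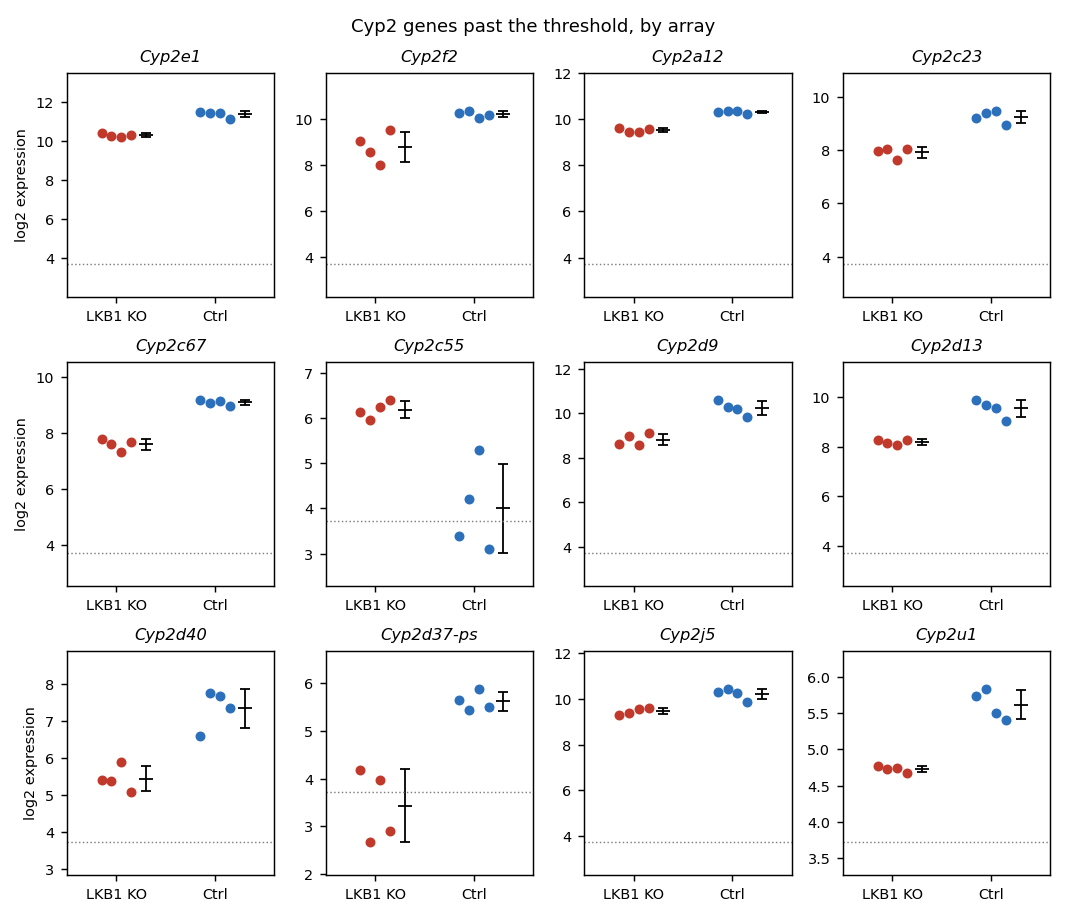
Log2 expression of the 12 called Cyp2 genes in LKB1 KO (red, left) and Ctrl (blue, right), 1 point per array in the order 1 to 4, with the mean and SD in black and the background gauge of 3.73 as a dotted line. The scales differ between panels and do not start at 0. In each panel the points of the groups do not overlap, and Cyp2c55 alone is higher in LKB1 KO.

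The neighbours Cyp2c37, Cyp2c54 and Cyp2c50, which metabolise arachidonic acid and are induced through CAR, shared a pattern across arrays. They were singled out after their values had been seen. Cyp2c50 had 4.71, 5.12, 4.74 and 4.82 in LKB1 KO 1 to 4, against 6.98, 6.48, 6.75 and 4.99 in Ctrl 1 to 4. Cyp2c54 had 5.93, 5.32, 6.22 and 5.80 in LKB1 KO 1 to 4, against 7.82, 7.62, 7.63 and 5.92 in Ctrl 1 to 4. In both genes Ctrl 4 lay within the range of the LKB1 KO arrays and far below the other Ctrl arrays. The differences of -1.45 for Cyp2c50 (adjusted p = 0.0758) and -1.43 for Cyp2c54 (adjusted p = 0.0939) did not pass the test. Without Ctrl 4 both passed, at -1.89 (adjusted p = 0.00149) and -1.87 (adjusted p = 0.00275). Cyp2c37, with log2 values of 3.72, 3.76, 4.67 and 3.68 in LKB1 KO 1 to 4, against 5.41, 5.03, 5.07 and 3.62 in Ctrl 1 to 4, likewise had its lowest Ctrl value in Ctrl 4. Its difference was -0.82 (adjusted p = 0.358), and -1.21 without Ctrl 4 (adjusted p = 0.0378), so that 14 in place of 11 Cyp2 genes were lower in that fit. Cyp2c37 was at the edge of detection, with 2 LKB1 KO arrays and 1 Ctrl array under the gauge. Lower values in Ctrl 4 were not confined to these genes. Each Cyp2 gene was also compared with its own mean over the 8 arrays. The median deviation of the family was -0.01 in Ctrl 4, against 0.17 to 0.23 in the other Ctrl arrays and -0.20 to -0.12 in LKB1 KO. The neutrophil marker list had its highest sum in Ctrl 4, 1038 against 330.9 to 497.6 in the other Ctrl arrays and 217.9 to 326.5 in LKB1 KO. That sum came mainly from S100a8 and S100a9, at 8.14 and 9.47 log2 units in Ctrl 4. The other members of the list were under the gauge in Ctrl 4. The part of these markers in the low Cyp2c values was not tested. The probes of these related genes may share targets.

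Cyp2c29, a CAR-inducible enzyme of arachidonic acid and drug metabolism, did not pass. It had 10.39, 10.68, 10.57 and 10.40 in LKB1 KO 1 to 4, against 10.64, 10.90, 11.04 and 10.08 in Ctrl 1 to 4. The groups overlapped (difference -0.16, 95% confidence interval -0.60 to 0.28, adjusted p = 0.792). Cyp2c70, which makes muricholic acids in mouse liver, had 10.19, 10.38, 10.50 and 10.26 in LKB1 KO 1 to 4, against 10.89, 10.84, 10.82 and 10.65 in Ctrl 1 to 4. The groups did not overlap, but the gene missed the threshold (difference -0.46, 95% confidence interval -0.74 to -0.19, adjusted p = 0.0958) and passed with a trended and robust prior variance (adjusted p = 0.0219). The remaining Cyp2c genes above the gauge, Cyp2c38, Cyp2c39 and Cyp2c68, lay between -0.45 and 0.03. Cyp2c40, a gene with higher expression in females, had 2.34, 1.70, 2.34 and 2.47 in LKB1 KO 1 to 4, against 2.64, 3.03, 2.60 and 2.98 in Ctrl 1 to 4. The groups did not overlap, but every array was under the gauge and the gene did not pass (difference -0.60, 95% confidence interval -1.01 to -0.19, adjusted p = 0.165). Also under the gauge were Cyp2c53-ps, Cyp2c65, Cyp2c66 and Cyp2c69, which lay between -0.15 and 0.11.

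In the Cyp2d subfamily 4 of 10 members fell and 0 rose, with a median difference of -0.36 log2 units and 9 lower means. The 6 others did not pass the limma test, and the lowest unadjusted p among them was 0.00666, for Cyp2d10. Cyp2d9, a testosterone hydroxylase that is higher in male than in female liver, had 8.64, 8.98, 8.57 and 9.12 in LKB1 KO 1 to 4, against 10.61, 10.31, 10.198 and 9.84 in Ctrl 1 to 4. The groups did not overlap, and the level was 2.67-fold lower (difference -1.42, SE 0.19, adjusted p = 0.00452). Cyp2d40 had 5.39, 5.36, 5.89 and 5.07 in LKB1 KO 1 to 4, against 6.59, 7.74, 7.68 and 7.34 in Ctrl 1 to 4. Ctrl 1 was the lowest of the Ctrl arrays and still above every LKB1 KO array, and the level was 3.75-fold lower (difference -1.91, SE 0.26, adjusted p = 0.00508).

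RefSeq annotates 2 of the falling Cyp2d genes, Cyp2d13 and Cyp2d37-ps, as transcribed pseudogenes. Cyp2d13 had 8.27, 8.13, 8.06 and 8.28 in LKB1 KO 1 to 4, against 9.87, 9.66, 9.57 and 9.05 in Ctrl 1 to 4. It was 2.55-fold lower (difference -1.35, SE 0.17, adjusted p = 0.00392). Cyp2d37-ps had 4.18, 2.68, 3.98 and 2.89 in LKB1 KO 1 to 4, against 5.65, 5.44, 5.88 and 5.50 in Ctrl 1 to 4. This was the lowest difference in the family (difference -2.19, SE 0.31, adjusted p = 0.00656), but LKB1 KO 2 and LKB1 KO 4 lay under the background gauge, so its size is uncertain. Probes of a pseudogene can detect transcripts of its relatives, and whether they did was not tested.

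The other Cyp2d genes differed less. Cyp2d26 had 9.995, 10.10, 10.196 and 10.29 in LKB1 KO 1 to 4, against 10.34, 10.38, 10.56 and 10.29 in Ctrl 1 to 4 and did not pass, although its groups just failed to overlap, LKB1 KO 4 and Ctrl 4 being almost level (difference -0.25, 95% confidence interval -0.52 to 0.02, adjusted p = 0.427). Cyp2d10 had 9.65, 9.76, 9.82 and 10.03 in LKB1 KO 1 to 4, against 10.45, 10.24, 10.24 and 10.11 in Ctrl 1 to 4. Its groups did not overlap, and it did not pass (difference -0.44, 95% confidence interval -0.74 to -0.15, adjusted p = 0.143). Cyp2d22, often named as the closest mouse relative of human CYP2D6, had 8.79, 8.57, 8.80 and 8.88 in LKB1 KO 1 to 4, against 9.14, 9.11, 9.04 and 8.77 in Ctrl 1 to 4. Its lowest Ctrl value, in Ctrl 4, lay among the LKB1 KO values, and the difference did not pass (difference -0.25, 95% confidence interval -0.55 to 0.04, adjusted p = 0.466). Cyp2d11, Cyp2d12 and Cyp2d34 lay under the gauge, with differences between -0.27 and 0.37.

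Among the Cyp2j genes 1 of 7 fell, with a median difference of -0.0046 log2 units, and 4 of the 7 lay under the gauge. Cyp2j5, an epoxygenase of arachidonic acid in liver and kidney, had 9.31, 9.40, 9.58 and 9.59 in LKB1 KO 1 to 4, against 10.29, 10.43, 10.26 and 9.88 in Ctrl 1 to 4. It was 1.68-fold lower (difference -0.75, SE 0.15, adjusted p = 0.0289), and the call ended without any array but Ctrl 4 (adjusted p up to 0.0960). Cyp2j9 had 4.61, 4.55, 4.93 and 4.75 in LKB1 KO 1 to 4, against 6.30, 5.79, 4.93 and 5.05 in Ctrl 1 to 4. Its lowest Ctrl value, in Ctrl 3, was almost level with the highest LKB1 KO value, in LKB1 KO 3, and it did not pass (difference -0.81, 95% confidence interval -1.41 to -0.21, adjusted p = 0.200). Cyp2j6 stood at -0.24 (adjusted p = 0.501), and Cyp2j8, Cyp2j11, Cyp2j12 and Cyp2j13, all under the gauge, lay between -0.0046 and 0.39. Cyp2u1, which hydroxylates long-chain fatty acids, fell. Its log2 values were 4.77, 4.73, 4.74 and 4.68 in LKB1 KO 1 to 4, against 5.73, 5.84, 5.50 and 5.40 in Ctrl 1 to 4. The LKB1 KO arrays agree closely with each other, and the level was 1.85-fold lower (difference -0.89, SE 0.13, adjusted p = 0.00724).

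Of the 3 measured Cyp2a genes, 1 fell and 2 were not called. Cyp2a12, which hydroxylates bile acids and steroids, had 9.64, 9.46, 9.44 and 9.56 in LKB1 KO 1 to 4, against 10.31, 10.36, 10.37 and 10.25 in Ctrl 1 to 4. Both groups had little spread, and the level was 1.74-fold lower (difference -0.80, SE 0.11, adjusted p = 0.00615). Cyp2a4, a steroid hydroxylase that is higher in female liver, had 4.96, 5.15, 5.69 and 5.17 in LKB1 KO 1 to 4, against 3.705, 4.21, 5.42 and 2.70 in Ctrl 1 to 4. The LKB1 KO arrays were higher on average, but Ctrl 3 lay among them (difference 1.23, 95% confidence interval 0.23 to 2.24, adjusted p = 0.247). Without Ctrl 3 the difference was 1.70 and passed (adjusted p = 0.0332). Ctrl 1 and Ctrl 4 lay under the gauge, and the probes of Cyp2a4 may also detect its near-identical neighbour Cyp2a5. Cyp2a22 stood at 0.25 (adjusted p = 0.719).

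None of the 5 Cyp2b genes passed the limma test, and the lowest unadjusted p was 0.0833, for Cyp2b19. Cyp2b10, the classical target gene of CAR in mouse liver, had 7.08, 6.96, 7.50 and 6.91 in LKB1 KO 1 to 4, against 6.92, 4.54, 7.404 and 7.37 in Ctrl 1 to 4. Ctrl 2 stood far below the other 7 arrays, which overlapped. The difference was 0.55 (-0.62 to 1.73 as its 95% confidence interval, adjusted p = 0.723), and -0.12 without Ctrl 2. Cyp2b9, which is higher in female liver, had 8.63, 7.79, 9.06 and 6.14 in LKB1 KO 1 to 4, against 9.04, 7.49, 9.48 and 5.91 in Ctrl 1 to 4. It varied more within the groups than any other Cyp2 gene, with a within-group SD of 1.47 against a median of 0.29 for the family and 0.23 for all genes. Between the groups it did not differ beyond that spread (difference -0.08, 95% confidence interval -1.81 to 1.66, adjusted p = 0.983). Cyp2b13, Cyp2b19 and Cyp2b23 lay under the gauge and between -0.18 and 0.30.

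**Figure D4:**
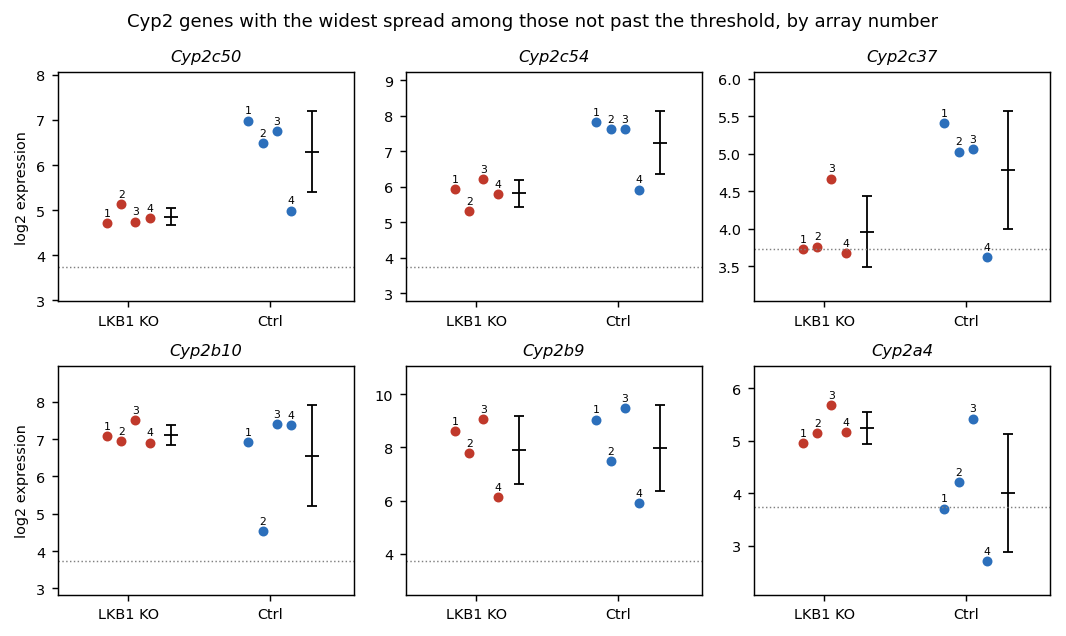
Log2 expression of the 6 Cyp2 genes with the widest spread within groups among those not called, in LKB1 KO (red, left) and Ctrl (blue, right), with the array number above each point, the mean and SD in black and the background gauge of 3.73 as a dotted line. Ctrl 4 stands apart from the other Ctrl arrays in Cyp2c50, Cyp2c54 and Cyp2c37, and Ctrl 2 in Cyp2b10, and Cyp2b9 runs from 5.91 to 9.48 in Ctrl.

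The remaining subfamilies with a single gene were mostly dim. Cyp2r1, which hydroxylates vitamin D, was well above the gauge. It had 6.90, 6.09, 7.001 and 7.09 in LKB1 KO 1 to 4, against 6.92, 7.32, 7.04 and 6.68 in Ctrl 1 to 4. The groups overlapped, and it did not pass (difference -0.22, 95% confidence interval -0.72 to 0.28, adjusted p = 0.745). Cyp2w1 had 3.83, 4.26, 3.67 and 3.67 in LKB1 KO 1 to 4, against 3.75, 3.65, 3.36 and 3.78 in Ctrl 1 to 4, close to the gauge. Cyp2s1, known from skin and lung, had 3.82, 4.03, 3.68 and 3.52 in LKB1 KO 1 to 4, against 3.703, 3.73, 3.15 and 3.30 in Ctrl 1 to 4. Neither gene passed, with adjusted p = 0.627 for Cyp2w1 and 0.526 for Cyp2s1. Cyp2t4 had 3.37, 3.41, 3.14 and 3.11 in LKB1 KO 1 to 4, against 2.84, 3.26, 3.02 and 2.85 in Ctrl 1 to 4. Cyp2g1, an enzyme of the olfactory mucosa, had 3.66, 3.30, 2.97 and 3.18 in LKB1 KO 1 to 4, against 3.16, 3.22, 3.84 and 2.94 in Ctrl 1 to 4. Cyp2ab1 had 2.05, 2.27, 2.37 and 2.26 in LKB1 KO 1 to 4, against 2.26, 2.20, 2.16 and 2.29 in Ctrl 1 to 4. The groups of these 3 genes overlapped, and all but the Ctrl 3 value of Cyp2g1 lay under the gauge.

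The members were also grouped by textbook role. Both genes listed as higher in males, Cyp2d9 and Cyp2u1, fell. Of 5 listed as higher in females none passed the limma test, Cyp2c40 having the lowest unadjusted p of 0.00866, and their median was -0.02. Of these 5, Cyp2b13, Cyp2c40 and Cyp2c69 lay under the gauge on every array, so this median is that of a dim gene. The other members, Cyp2a4 and Cyp2b9, stood at 1.23 and -0.08. Of 6 listed as inducible through CAR, Cyp2c55 rose, 5 did not pass and the median was -0.49. Of 10 arachidonic acid epoxygenases 2 fell (Cyp2c23 and Cyp2j5), 1 rose (Cyp2c55) and the median was -0.60. Of 5 pericentral genes Cyp2e1 fell, 4 did not pass and the median was -1.09, with Cyp2c37, Cyp2c50 and Cyp2c54 depending on Ctrl 4 as given above. The lists share members, so their counts are not independent.

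Along the chromosomes, falls stood beside genes that did not pass. In the cluster on chromosome 7 the falls of Cyp2a12 and Cyp2f2 were next to each other among the measured Cyp2 genes, and the 9 measured genes from Cyp2s1 to Cyp2a22 on one side and Cyp2t4 on the other were not called. On chromosome 15 the falls of Cyp2d13, Cyp2d37-ps and Cyp2d40 followed each other in the measured order. On chromosome 19 Cyp2c55 lay at one end of the measured Cyp2c genes and Cyp2c23 at the other, with Cyp2c67 between Cyp2c38 and Cyp2c68, which did not pass. The order is that of RefSeq on assembly GRCm38.p6, in which all 50 genes matched by gene number.

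Several nuclear receptor genes fell in the same livers. Of 12 measured xenobiotic and nuclear receptors 5 fell, 0 rose and 7 did not pass, with a median of -0.35 log2 units. The share called was 41.7%, against 1.98% of all genes and 3.76% of those above the gauge. Nr1i3, which encodes CAR, had 6.95, 6.68, 6.90 and 7.11 in LKB1 KO 1 to 4, against 8.08, 7.90, 7.91 and 7.94 in Ctrl 1 to 4. It was 2.07-fold lower (difference -1.05, SE 0.13, adjusted p = 0.00324). The gene of its partner RXR alpha, Rxra, also fell (difference -0.69, SE 0.12, adjusted p = 0.0161), as did Ahr (-1.19), the fatty acid receptor gene Ppara (-1.24) and the bile acid receptor gene Nr1h4 (-1.26). Rxra lost its call when array 1 or 4 of the LKB1 KO group was omitted (adjusted p at most 0.0563). Nr1i2, which encodes PXR, had 8.51, 8.01, 8.46 and 8.59 in LKB1 KO 1 to 4, against 7.88, 7.79, 8.11 and 7.99 in Ctrl 1 to 4. Its groups overlapped and it did not pass (difference 0.45, 95% confidence interval 0.11 to 0.79, adjusted p = 0.204).

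Transcription factors and partners of the P450 enzymes were examined next. Of 15 liver-enriched transcription factors 2 fell, Cebpa (difference -0.99, SE 0.16, adjusted p = 0.0108) and Prox1 (difference -0.90, SE 0.18, adjusted p = 0.0310), and 0 rose, with a median of -0.21. The share called was 13.3%, against 1.98% of all genes and 3.76% of those above the gauge. The call of Prox1 ended without any array but Ctrl 1 (adjusted p up to 0.0830). Hnf4a had 9.74, 9.28, 9.67 and 9.56 in LKB1 KO 1 to 4, against 9.52, 9.69, 9.71 and 9.48 in Ctrl 1 to 4 and did not pass (difference -0.04, 95% confidence interval -0.34 to 0.26, adjusted p = 0.939). None of 5 measured partners of electron transfer and none of 11 heme synthesis and breakdown genes passed the limma test. The electron transfer list had a median of -0.25 and its lowest adjusted p was 0.119 (Cyb5r3, -0.43), with an unadjusted p of 0.00488. The heme list had a median of -0.05 and its lowest adjusted p was 0.0991 (Slc25a39, 0.46), with an unadjusted p of 0.00352. Alas1, the rate-limiting enzyme of heme synthesis, stood at 0.43 (adjusted p = 0.361).

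**Figure D5:**
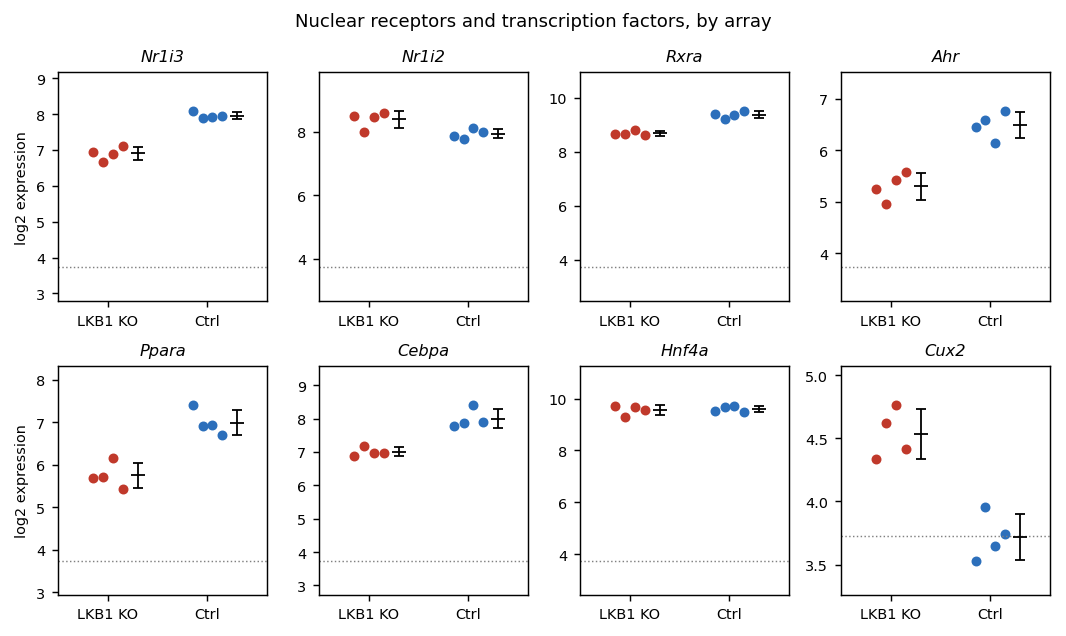
Log2 expression of 5 nuclear and xenobiotic receptor genes and 3 transcription factor genes in LKB1 KO (red, left) and Ctrl (blue, right), 1 point per array, with the mean and SD in black. The scales differ between panels. Nr1i3, Rxra, Ahr, Ppara and Cebpa are lower and Cux2 higher in LKB1 KO without overlap, and Nr1i2 and Hnf4a overlap.

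Genes outside the family that share its patterns of regulation were listed as well. The share called was 6.67% for CAR and PXR targets, 23.5% for pericentral and 9.09% for periportal genes. Over all genes it was 1.98%, and 3.76% of those above the gauge. Of 15 CAR and PXR target genes outside Cyp2, Cyp3a13 fell (difference -1.02, SE 0.18, adjusted p = 0.0194), 14 did not pass and the median was 0.24. Its call ended without Ctrl 1 or LKB1 KO 3 (adjusted p up to 0.0604). Of 17 pericentral genes 4 fell, namely Glul (-0.71), Cyp1a2 (-1.38), Cyp27a1 (-0.85) and Ahr, and the median was -0.11. In this list 11 genes had a lower and 6 a higher mean in LKB1 KO. The highest difference was that of Oat (1.08, adjusted p = 0.0535), whose groups did not overlap but which did not pass. Glul and Cyp27a1 lost their calls with single arrays left out (adjusted p up to 0.0836 and 0.0800). The Wnt target genes Axin2 (0.27, adjusted p = 0.489) and Lgr5 (0.19, adjusted p = 0.810) did not pass. Tbx3 (-0.51, adjusted p = 0.307) and Rnf43 (-0.47, adjusted p = 0.248) of the same list had lower means and did not pass either. Of 11 periportal genes Hsd17b6 fell (-1.59, adjusted p = 0.0418) and the median was -0.02, and this call also ended with single arrays left out (adjusted p up to 0.128).

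Of 12 measured genes outside Cyp2 that are higher in male liver 7 fell and 0 rose, with a median of -1.75 log2 units. They were Elovl3, Cyp4a12a, Cyp7b1, Slco1a1, Selenbp2, C6 and Serpina4-ps1. Of 12 genes that are higher in female liver 3 rose and 0 fell, so that 25.0% were called, with a median of 0.17. In this list 5 of the 12 had a mean under the gauge. Those that rose were Cyp17a1, Prom1 and Cux2. Prom1 lay under the gauge in Ctrl 1 (3.32) and Ctrl 2 (3.25). Cux2 is a transcription factor of female liver that represses male-biased genes in mice. Its difference was 0.82 (SE 0.15, adjusted p = 0.0188), with 2 Ctrl arrays under the gauge. In the growth hormone list Cux2 was the 1 of 10 that passed, while Ghr stood at -0.81 (adjusted p = 0.105) and Stat5b at -0.60 (adjusted p = 0.125). Xist lay under the background gauge in all 8 arrays and the Y-linked gene Eif2s3y above it, at 6.93 to 7.35 in LKB1 KO and 6.80 to 7.48 in Ctrl. The Y-linked genes Kdm5d and Uty also lay above the gauge in all 8 arrays. All 8 arrays thus had the sex-linked transcripts of male tissue. Among the Ctrl arrays Ctrl 4 had the lowest Eif2s3y, Kdm5d and Uty (6.80, 4.98 and 5.62). In LKB1 KO the lowest values were those of LKB1 KO 2 (6.93, 4.32 and 5.26). The sex-linked genes were looked up after Cyp2b9 had been seen. The calls of Cyp7b1, Serpina4-ps1 and Cux2 ended with single arrays left out (adjusted p up to 0.104, 0.0993 and 0.0605).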

How the data were processed

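Liver RNA from 4 LKB1 KO and 4 Ctrl samples, grouped by title, was measured on 1 array each. The deposited table holds log2 expression values, 1 per row and array. The submitters' processing notes name RMA, which corrects background, normalizes arrays and summarises probes, and Partek, without versions. The sources used here do not give the genome build. RMA compresses differences between dim probes. Of 25206 rows, 23185 had 1 symbol in the platform annotation and were tested. The other 2021 rows had no symbol or more than 1, and were fitted only in the alternative that used all rows.

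A linear model with the group as its term was fitted to all 23185 genes by lmFit and eBayes of limma 3.58.1 (R 4.3.3), without a filter on level. P-values were adjusted by Benjamini-Hochberg over all of them, with a threshold of 0.05. Differences are LKB1 KO minus Ctrl in log2 units, and fold is the higher over the lower level. No label says that the samples are separate animals, so p-values measure only the spread between samples, which may be technical, and 4 arrays a group limit the precision. Members and lists were chosen with earlier results of these data known. Values per array are given for called members, the brightest member of each subfamily and textbook members (Cyp2b10, Cyp2c29, Cyp2e1, Cyp2f2, Cyp2a4, Cyp2b9, Cyp2d9 and Cyp2r1), and for Cyp2c50, Cyp2c54, Cyp2c37, Cyp2c40, Cyp2c70, Cyp2d10, Cyp2d22 and Cyp2j9, which were added after their values had been seen. Of the lists outside the family, members past the threshold are named, with a few others as values. Alternatives were a block for the replicate number, omission of each array in turn, LKB1 KO 2 and Ctrl 4 left out together, quantile normalization, median centring, 2 filters on dim genes, a trended and robust prior, no moderation, array weights, all rows and 2 stricter thresholds. Protein and promoter sequences were not used here.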

Additional observations from a re-analysis of the deposited data

Results flagged for a closer look

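In 6 of 112 groups of 4 arrays the lowest or highest array stood apart from the other 3, with a gap to the nearest that was over Dixon's 95% critical value for 4 samples. Chance gives about 1 in 20 such groups if they are independent and chosen without sight of their values, which does not hold here. Cyp2c54 and Cyp2c37 were among the genes added after their values had been seen, and related genes can vary together. Not all of the 50 Cyp2 genes were among the groups tested. Among the Cyp2 genes tested, the groups flagged were Cyp2b10 in Ctrl 2 (4.54 log2 units, nearest 6.92), Cyp2c54 in Ctrl 4 (5.92, nearest 7.62) and Cyp2c37 in LKB1 KO 3 (4.67, nearest 3.76). Outside the family they were Glul in LKB1 KO 2 (9.78, nearest 10.15), Rxra in LKB1 KO 3 (8.81, nearest 8.65) and Slco1a1 in Ctrl 4 (9.86, nearest 10.51).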

How the results depend on the processing

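The 12 called Cyp2 genes kept their sign in every alternative run, and 9 of them kept their call with each array left out, all but Cyp2f2, Cyp2j5 and Cyp2c55. The number of Cyp2 genes lower in LKB1 KO was 9 to 14 with single arrays left out and 5 without moderation of variances, where Cyp2a12, Cyp2c23, Cyp2c67, Cyp2e1 and Cyp2u1 remained. With LKB1 KO 2 and Ctrl 4 both left out it was 12, without Cyp2f2 (adjusted p = 0.0916). The number higher was 0 to 2 with single arrays left out, and 0 with LKB1 KO 2 and Ctrl 4 both left out (Cyp2c55 at adjusted p = 0.0508), without moderation (Cyp2c55 at adjusted p = 0.164) or at an adjusted p under 0.01. Over all genes, the count of 458 became 213 to 491 with single arrays left out, 97 without moderation, 721 with array weights and 139 at an adjusted p under 0.01. The median of the Cyp2 genes ran from -0.27 to -0.16 with single arrays left out, was -0.18 with quantile normalization and -0.24 with median centring, and became -0.44 without the dimmest genes by a rank filter and -0.46 without genes under the gauge, since fewer and brighter members were then counted. The difference between the changes of Cyp2e1 and Cyp2f2 ran from 0.11 to 0.59 with single arrays left out (lowest exact p = 0.0571, without LKB1 KO 4).

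Equal replicate numbers are not said to share an animal or day. Over all genes, the deviations of arrays with equal numbers had correlations from -0.11 to 0.18. Such values cannot show whether arrays with equal numbers share a factor. With the replicate number as a replicate block, 268 genes passed, the Cyp2 genes lower in LKB1 KO numbered 10 and Cyp2j5 lost its call (adjusted p = 0.0905). So did Cyp27a1, Cyp7b1, Glul, Hsd17b6, Prox1 and Rxra (adjusted p from 0.0593 to 0.0908). Cyp2b9 had its highest value in array 3 and its lowest in array 4 of both groups.

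Small differences that changed sign were those of Cyp2ab1 (-0.0267 with median centring, -0.018 with quantile normalization, -0.035 to 0.0727 with single arrays left out) and Hnf4a (0.0245 with quantile normalization, 0.0153 with LKB1 KO 2 and Ctrl 4 left out, -0.10 to 0.0559 with single arrays left out). With single arrays left out this also held for Cyp2b9 (-0.77 to 0.51), Cyp2b10 (-0.12 to 0.84), Cyp2g1 (-0.14 to 0.17) and Cyp2r1 (-0.32 to 0.0094). Cyp2c50 and Cyp2c54 also passed with array weights (adjusted p = 0.0212 and 0.0412) and with LKB1 KO 2 and Ctrl 4 left out (0.00240 and 0.00316), and Cyp2c50 passed without genes under the gauge (0.0444). Outside the family, Cux2 (adjusted p = 0.0617), Cyp7b1 (0.0553) and Serpina4-ps1 (0.136) lost their calls with both arrays left out, Hsd17b6 with quantile normalization (0.0529) and Serpina4-ps1 with a trended and robust prior (0.0729). Without moderation 19 of the 23 called genes named outside the family lost their calls (adjusted p from 0.0532 to 0.228), Ahr, Ppara, Nr1h4, Cebpa, Cyp1a2, Elovl3, Cyp17a1 and Prom1 among them, and Stk11, Nr1i3, Rxra and C6 kept theirs. The cause of these changes was not tested. Signal near background limits the sizes given for the dim genes.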
